A study of Mus musculus with 14 samples.

Results

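The aquaporin water channels examined here are the 7 genes Aqp1, Aqp3, Aqp4, Aqp5, Aqp7, Aqp8 and Aqp9, each measured by 1 probe whose platform annotation names it. They are 7 of 16879 genes on the array and were followed over 12 mammary tumours. The family was selected on the spread of its log2 ratios over these tumours, which is therefore given as a description. The tumours were Brg1+/- murine mammary tumours, that is, from mice heterozygous for Brg1, the motor subunit of the chromatin remodeller SWI/SNF. All 12 share this genotype, no other tissue or treatment was compared, and the labels mark each tumour MIXED without explaining the word. Age, strain and whether tumours came from separate animals are not stated in the labels. Tumour RNA in Cy5 was hybridised on 14 arrays against 1 mouse reference RNA, labelled with Cy3, with a second array, marked biorep, for T172 and for T284. Every level below is the log2 ratio of tumour over that reference for 1 gene, and T172 and T284 enter as the mean of their 2 arrays. Such a ratio is not a level per length, so no gene is ranked against another by its ratio.

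Aquaporins are membrane pores that let water follow osmotic gradients. Aqp1, Aqp4 and Aqp5 pass mainly water, whereas Aqp3, Aqp7 and Aqp9 are aquaglyceroporins, which also pass glycerol, and Aqp8 also passes hydrogen peroxide and ammonia. In many tissues Aqp1 marks capillary endothelium and red cells, Aqp3 the basal layers of stratified epithelium, Aqp5 the apical membrane of glands, and Aqp7 fat cells. Aqp4 is best known from astrocytes and fast muscle fibres, and Aqp9 from liver and neutrophils.

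T172 and T284 resembled each other more than other tumours did, above all in their second arrays. After each gene was centred on its mean over tumours, these second arrays correlated at r = 0.616 over 16535 genes, which are not independent replicates. That was the highest value among arrays of different tumours (median -0.115), against 0.709 for the 2 arrays of T172 and 0.703 for those of T284. T176 stood apart in simple epithelial genes, with 0 of 12 luminal marker genes above their own mean and a luminal score of -3.80, against -0.32 to 1.05 elsewhere.

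Aqp3 and Aqp5, the members with the widest spread, start transcription from unlike upstream sequence, and the 250 bases before their annotated start sites are shown to let a reader see this. The sequences are from RefSeq, build GRCm38.p6, with capitals marking, on either strand, the TATA box TATAAA, the GC box motif of letters GGGCGG, and the core of the hypoxia response element, ACGTG. Aqp3 lies on the minus strand at chr4:41098184-41098433 and Aqp5 on the plus strand at chr15:99590778-99591027.
Aqp3: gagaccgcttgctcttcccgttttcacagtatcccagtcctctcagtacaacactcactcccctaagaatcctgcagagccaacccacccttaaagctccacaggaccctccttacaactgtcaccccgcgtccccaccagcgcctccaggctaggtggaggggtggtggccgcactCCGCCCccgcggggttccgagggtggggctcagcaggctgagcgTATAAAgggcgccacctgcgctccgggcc
Aqp5: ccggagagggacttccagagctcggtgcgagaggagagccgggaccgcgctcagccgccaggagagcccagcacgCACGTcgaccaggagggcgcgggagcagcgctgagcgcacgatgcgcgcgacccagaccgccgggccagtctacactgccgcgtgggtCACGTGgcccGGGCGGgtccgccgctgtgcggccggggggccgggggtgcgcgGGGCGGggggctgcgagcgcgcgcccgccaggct

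The Aqp3 window holds TATAAA from -29 to -24 relative to its start site, letters that 12.4% of 32851 such windows contain. It also has 1 GC box on the opposite strand, a motif found in 32.7% of windows. The Aqp5 window has no TATAAA but 2 GC boxes, and ACGTG at -175 on the opposite strand and at -87 to -82 on both strands, where the 2 matches overlap in the palindrome CACGTG (16.6% of windows hold ACGTG). Its GC content of 78.4% is above that of 98.1% of windows and its 38 CpG compare with a median of 6, whereas the Aqp3 window has 64.0% GC and 14 CpG. The palindrome CACGTG in the Aqp5 window also matches the E-box letters CANNTG, which 66.2% of windows contain. The Aqp3 window holds unmarked E-boxes from -135 to -130 and from -17 to -12. These matches describe letters only, and no binding was measured.

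Among the channels that pass mainly water, Aqp5 varied most over tumours and Aqp4 least. Aqp5 had its lowest log2 ratio of -2.52 in T176, a median of 1.57 and its highest of 4.44 in T646 (mean 1.49 ± 2.36, SD, n = 12). The tumours formed a low stretch and a high stretch, with T160, T221, T284, T172, T920 and T646 at 2.62 to 4.44 and the other 6 at -2.52 to 0.53. The gap of 2.09 between T2134 and T160 exceeded the larger difference between 2 arrays of a tumour, 0.85 in T172 (4.20 and 3.36), and the arrays of T284 stood at 3.75 each. Of the 11 gaps between neighbours in this order, 4 were larger than 0.85, so the order among T172, T284, T920 and T646 is not resolved by these arrays. The lowest and highest tumours differed 124-fold.

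Aqp1, the water channel of endothelium and red cells, ranged from -2.45 in T2023 over a median of -1.42 to 0.21 in T646 (mean -1.12 ± 0.88, SD, n = 12). It was at or slightly above the reference in T221 (0.03), T920 (0.16) and T646 (0.21) and below it in the other 9 tumours. No gap between neighbouring tumours exceeded the 0.76 by which the arrays of T172 differed (-1.93 and -1.17), so the order of neighbouring tumours is not resolved by these arrays.

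Aqp4 stood between -3.27 in T135 and -2.27 in T920 with a median of -2.73 (mean -2.75 ± 0.32, SD, n = 12). Its SD over tumours was close to its moderated SD within a tumour, 0.30, and the 2 arrays of T172 alone differed by 0.48. Aqp8 ranged from -4.12 in T135 over a median of -3.35 to -2.37 in T160 (mean -3.32 ± 0.57, SD, n = 12). T160 and T372 (-2.46) were separated from the remaining tumours, which stood at -2.99 or lower, by 0.54, slightly more than the 0.42 between the arrays of T172.

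Among the aquaglyceroporins Aqp3 had the widest spread of all members and Aqp9 the smallest. Aqp3 ran from -4.14 in T172 over a median of -1.38 to 5.37 in T221 (mean -0.47 ± 3.15, SD, n = 12), a 732-fold span. It stood above the reference in T221 (5.37), T2023 (3.84), T135 (2.66), T372 (0.78) and T2134 (0.71), and below it in the other 7. The arrays of T172 gave -4.26 and -4.02 and those of T284 -4.14 and -3.79, so the larger difference within a tumour was 0.34. Of the 11 gaps between neighbouring tumours 8 were larger than that, and the pairs left unresolved were T172 with T284, T160 with T55, and T2134 with T372.

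Aqp7, the glycerol channel of fat cells, stood between -2.14 in T135 and -0.94 in T920 with a median of -1.40 (mean -1.51 ± 0.34, SD, n = 12). The arrays of T172 differed by 0.43 and those of T284 by 0.55, more than its SD over tumours. Aqp9 lay near the reference throughout, from -0.47 in T135 over -0.02 to 0.38 in T920 (mean -0.07 ± 0.23, SD, n = 12), and the arrays of T284 differed by 0.36. Because no signal intensity accompanies these ratios, a gene near 0 in every tumour cannot be told from one too dim to measure in tumour and reference. For the same reason, how far a ratio well below 0 reflects a tumour signal too dim to measure is not known. Aqp4, Aqp7 and Aqp9 each had their lowest ratio in T135 and their highest in T920, and Aqp8 also had its lowest in T135. In each case the next tumour lay closer than the larger difference between 2 arrays of a tumour. These end positions are therefore not resolved by the arrays.

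**Figure D1:**
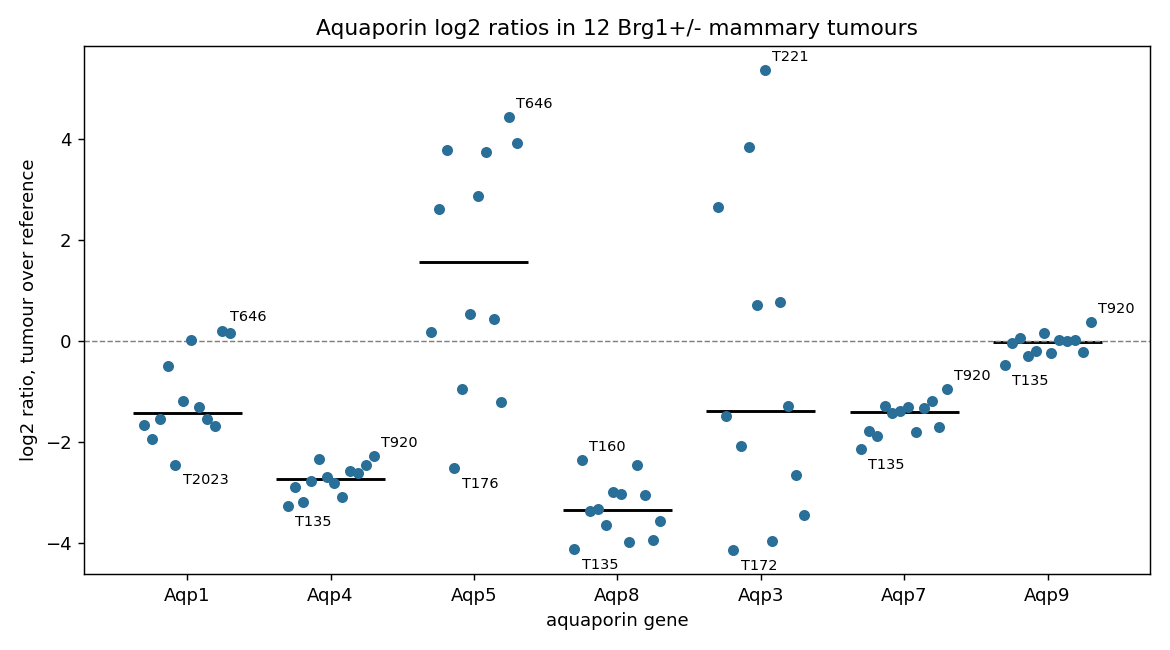
Log2 ratio of tumour over reference for each aquaporin gene, 1 point per tumour in alphabetical order of tumour label from left to right, with the median as a bar and the lowest and highest tumour named. Aqp3 spans -4.14 to 5.37 and Aqp5 -2.52 to 4.44, whereas Aqp9 stays within -0.47 to 0.38.

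The median SD over tumours was 0.57 for the 7 members and 0.39 for all 16618 genes tested. Aqp3 and Aqp5 were the 2 of 7 with an SD of at least 1, which 7.98% of all genes reach, and also of at least 2, which 0.74% reach. By limma's moderated F-test between tumours, 3 of the 7 had an adjusted p under 0.05, where 18.6% of all genes did. This test concerns the same spread on which the family was selected, so nothing is read from that count and no p-value is given for a single member. Relative to the reference, Aqp4, Aqp7 and Aqp8 were below 0 in all 12 tumours, as were 14.8% of genes, and Aqp4 and Aqp8 were at -1 or lower in all 12, as were 4.79%.

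**Figure D2:**
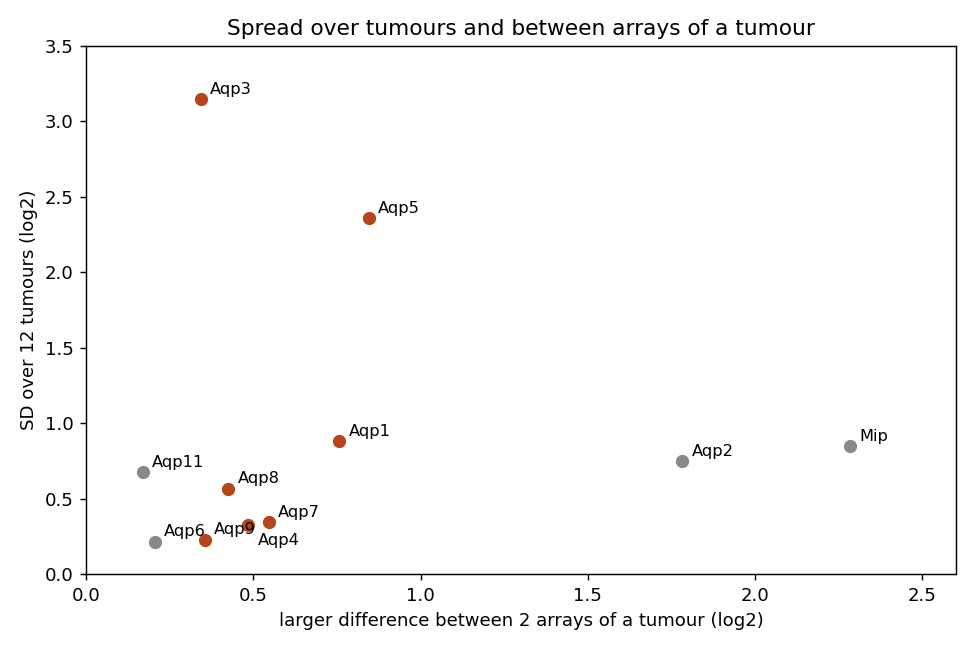
SD of the log2 ratio over 12 tumours against the larger of the differences between the 2 arrays of T172 and of T284, for the 7 members in red and the other 4 aquaporin genes on the array in grey. Aqp3 (3.15 against 0.34) and Aqp5 (2.36 against 0.85) lie highest, and Mip and Aqp2 lie far to the right.

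The members did not vary as 1 family. Over the 21 pairs of members, Pearson's r across the 12 tumours ranged from -0.503 to 0.773 with a median of 0.139, as a description over arrays that all pairs share. Aqp4 with Aqp7 gave the highest value (0.773, Spearman's rho 0.678), in a pair of genes whose spread is about that of repeated arrays. Aqp3 with Aqp9 gave the lowest (-0.503), and Aqp3 with Aqp5 gave -0.384. T172, T284, T920 and T646 had the 4 lowest Aqp3 ratios (-4.14 to -2.64) and the 4 highest Aqp5 ratios (3.75 to 4.44). T221 was high in each (5.37 and 2.88), and T176 low in each (-2.09 and -2.52).

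**Figure D3:**
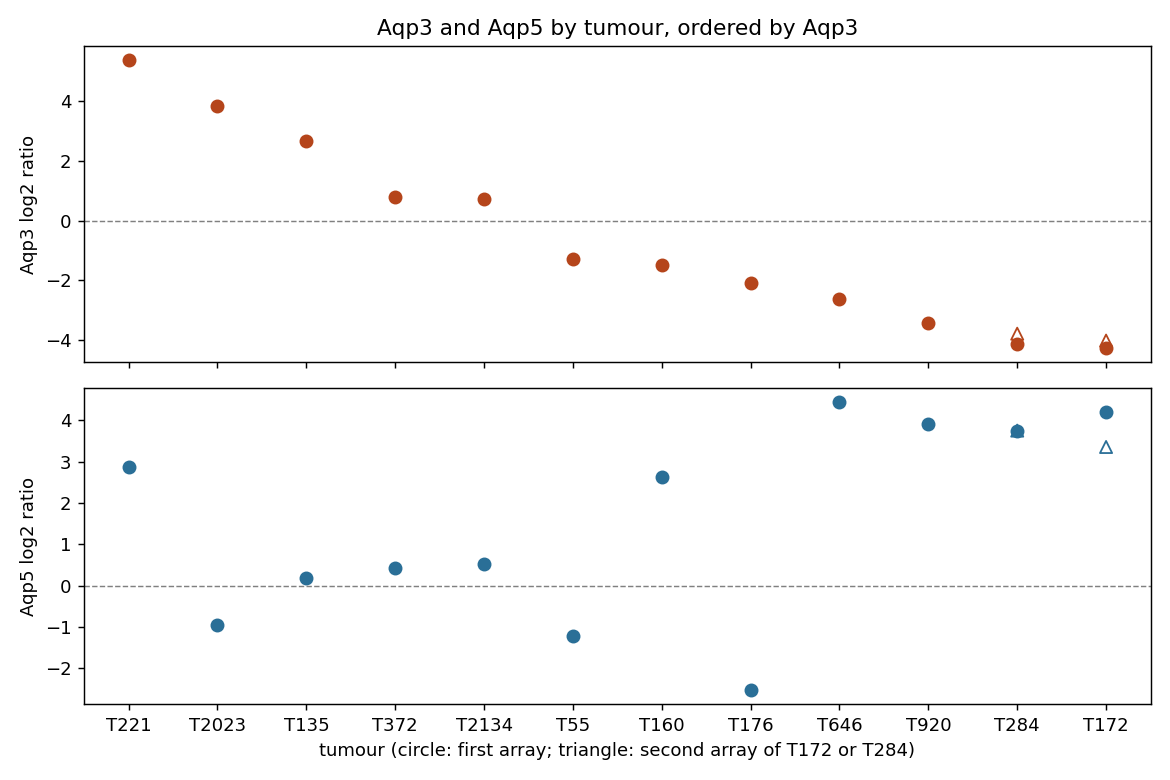
Log2 ratio of Aqp3 (upper) and Aqp5 (lower) in each tumour, ordered from the highest to the lowest Aqp3, with circles for first arrays and triangles for the repeat arrays. The 4 tumours at the right, with Aqp3 at -4.14 to -2.64, hold the 4 highest Aqp5 ratios.

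Aquaporin genes that are neighbours in the genome differed in how widely they varied. In the RefSeq annotation Aqp7 and Aqp3 are adjacent protein-coding genes on chromosome 4, and Aqp2, Aqp5 and Aqp6 follow each other on chromosome 15. Aqp3 had an SD over tumours of 3.15 and its neighbour Aqp7 one of 0.34 (r = 0.058, n = 12). Beside Aqp5 with an SD of 2.36, Aqp2, the vasopressin-regulated channel of the kidney collecting duct, had an SD of 0.75. The 4 tumours with the highest Aqp2, namely T284, T172, T646 and T920, were also the 4 with the highest Aqp5 (r = 0.534, n = 12, and 0.357 without T172 and T284). However, the arrays of T284 differed by 1.78 in Aqp2, more than any gap between neighbouring tumours, so the order in Aqp2 is not resolved. Aqp6, an anion-permeable channel of kidney vesicles, had an SD of 0.21 and stood between 0.03 in T55 and 0.87 in T920 (r = 0.536 with Aqp5, n = 12). These correlations are descriptions over shared arrays.

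Of the 4 other aquaporin genes on the array 1 differed between tumours at an adjusted p under 0.05, beside 18.6% of all genes. Aqp11, an intracellular channel, ranged from -3.59 in T135 over a median of -2.50 to -1.27 in T2134 (limma adjusted p = 0.0327). Its call was lost without T135, T160 or T2134, and with a mean trend in limma's prior, the adjusted p ranging from 0.000111 to 0.103 over 22 alternatives. Mip, the lens fibre aquaporin, and Aqp2 were highest in T284 (2.50 and 1.39), but there the 2 arrays disagreed. The first array of T284 gave 1.35 for Mip and 0.50 for Aqp2, and the second 3.64 and 2.28. Neither was called (limma adjusted p = 0.165 for Mip and 0.126 for Aqp2), nor was Aqp6 (0.897). Mip was called without any 1 of the 4 arrays of T172 and T284, without either of these tumours, and with a term for the second arrays. Its adjusted p ranged from 0.00212 to 0.204. Aqp2 was called without either array of T172, without T172, without the first array of T284, and with that term, with a range of 0.00391 to 0.147. When an array of T172 or T284, or either tumour, is left out, the spread within a tumour comes from the other alone.

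Aqp3 followed the genes of stratified epithelium. The score of this list averages its 14 measured genes after each was centred on its own mean over tumours. It ranged from -2.06 in T284 to 2.33 in T2023, and its arrays differed by 0.06 in T172 and 0.23 in T284. In T221 and T2023 14 of 14 genes lay above their own mean, in T135 13 and in T372 12, against 0 in T172 and in T284. Aqp3 correlated with this score at r = 0.961 and rho = 0.972 (n = 12 tumours, permutation p = 1e-05 each, the smallest that 100000 resamples can give, two-sided). The adjusted p was 0.00014 over the 14 relations tested, and r was 0.953 without T221 and T2023, the 2 tumours farthest from the median score. Without T172 and T284, the tumours with the lowest Aqp3, it was 0.947. Over the alternatives r ran from 0.935 to 0.979. Earlier results of these data had already shown tumours rich in squamous genes as high in Aqp3. These p-values are therefore no independent evidence for the relation. Each of the 14 genes correlated positively with Aqp3, with r from 0.484 for the desmosomal cadherin Dsc3 to 0.959 for Krtdap, a secreted peptide of differentiating keratinocytes. Trp63, the transcription factor of basal epithelium, gave 0.810 and Krt16, a keratin of activated epidermis, 0.845. In these bulk samples, fewer cells of a type and less RNA per cell cannot be told apart. The part of epithelial composition in the Aqp3 ratio was not tested.

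Aqp3 is also known from the lactating gland, but no relation with the 12 milk genes was found (r = -0.018, rho = 0.119, permutation adjusted p = 0.955, n = 12). T135 and T2023 combined high Aqp3 with low milk scores (-2.21 and -2.02), whereas T55 had the highest milk score (2.03) and an Aqp3 ratio of -1.28. The arrays of T172 differed by 1.67 in this score, and the sign of r changed in 6 of the 18 alternatives.

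Aqp7 tended to be higher where fat cell genes were higher, but it was not highest in T221, where their score peaked. The adipocyte score over 11 measured genes ranged from -0.56 in T172 to 1.20 in T221. Aqp7 correlated with it at r = 0.731 and rho = 0.888 (permutation p = 0.00577 and 0.00028, adjusted p = 0.0269 and 0.00196, n = 12). Like the other relations, this one was chosen with earlier results of these data known. Without T55 and T221, the tumours farthest from the median score, r was 0.900. T221 had 9 of 11 genes above their own mean but an Aqp7 ratio of -1.32, below T920 (-0.94), T55 (-1.18) and T176 (-1.29). Each of the 11 genes correlated positively with Aqp7, with r = 0.751 for Plin1, which coats lipid droplets, 0.687 for Cidec and 0.404 for the glucose transporter gene Slc2a4, which was the median. Only 4 of the 11 reached 0.5, and the lowest were 0.015 for the leptin gene Lep and 0.098 for the lipase gene Pnpla2. The call rests on small differences: it was lost with quantile normalization (r = 0.542, adjusted p = 0.269), with the first arrays of T172 and T284 alone (0.648, 0.110), and without T172 and T284 (0.659, 0.190). It was also lost with the median as score (0.674, 0.0590), and without any 1 of T55, T160, T172, T284, T646, T920 and T2023 (0.697 to 0.737).

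Aqp1 tended to be higher where the endothelial score was higher, with exceptions. The endothelial score over 12 genes ranged from -0.53 in T2134 to 0.76 in T221, with 10 of 12 genes above their own mean in T221 and 11 in T646. Its arrays differed by 0.22 in T172 and 0.35 in T284. Aqp1 correlated with the endothelial score at r = 0.770 (permutation p = 0.00428, adjusted p = 0.0269, n = 12), but by rank the relation did not pass (rho = 0.699, adjusted p = 0.0626). This relation too was chosen with earlier results of these data known. Without T221 and T646 r was 0.552. T920 departed from the pattern, with Aqp1 at 0.16 and an endothelial score of 0.03. T372 did too, with Aqp1 at -1.54 although its score was 0.28 with 9 of 12 genes above their own mean, and r was 0.830 without it. That score is smaller than the 0.35 between the arrays of T284. Among the list's genes with the largest SD, Cd34, Robo4 and Emcn, which mark vessel lining cells, gave r = 0.567, 0.649 and 0.529. Over the 12 genes r ran from -0.016 for Cdh5, the cadherin of endothelial junctions, to 0.802 for Esam, an endothelial adhesion molecule, and 7 of the 12 reached 0.5. The adjusted p exceeded 0.05 without T172 and T284 (r = 0.765, adjusted p = 0.0886) and without any 1 of T55, T160, T172, T221, T646 and T2023 (r from 0.699 to 0.765). With 7 measured red blood cell genes, of which Hba-a1 encodes alpha globin, Aqp1 gave r = -0.376 (adjusted p = 0.401). The score of these genes ranged from -0.48 in T135 to 0.48 in T2134, and the arrays of T172 differed in it by 0.59. Without T135 and T2134, the tumours farthest from the median score of that list, r was -0.64.

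**Figure D4:**
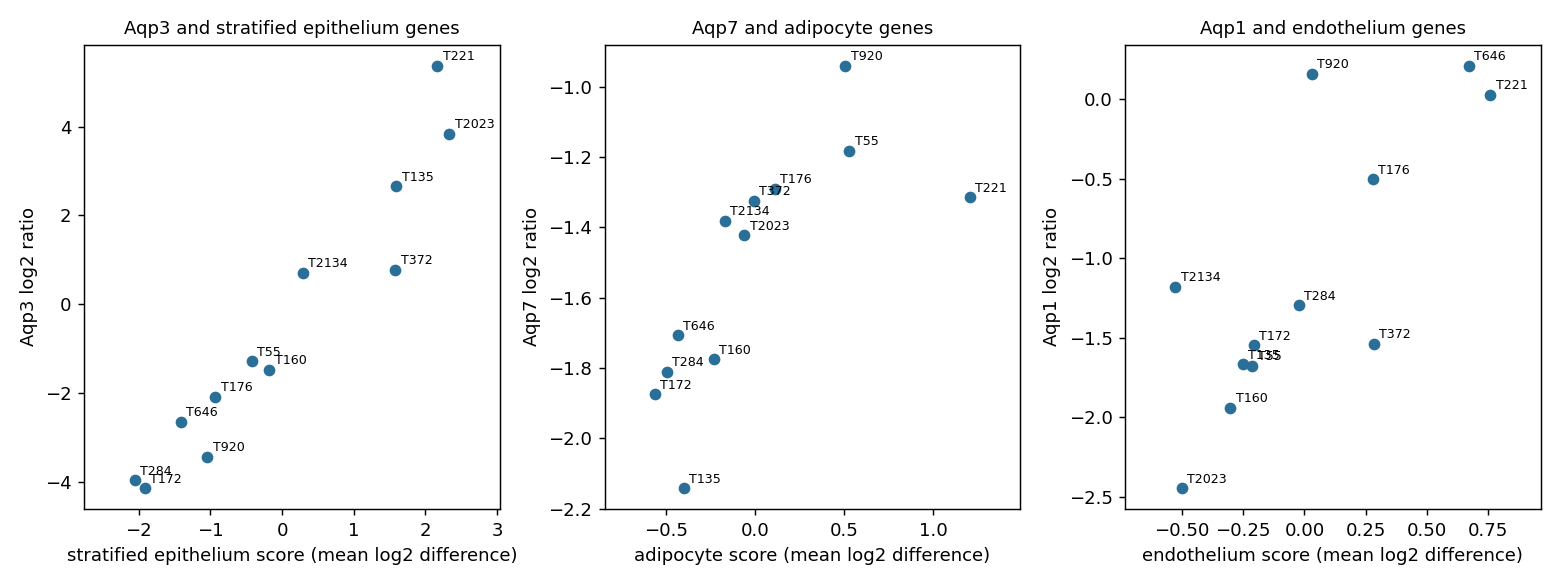
Log2 ratio of Aqp3, Aqp7 and Aqp1 against the score of stratified epithelium, adipocyte and endothelium genes, 1 point per tumour, each score being the mean log2 difference of the list's genes from their own means. Aqp3 follows its score over the whole range (r = 0.961), while T221 lies off the trend for Aqp7 and T920 and T372 for Aqp1.

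Aqp5 did not follow the secretory genes of salivary and lacrimal glands, where it is the main apical channel. Of that list 9 genes were measured, and the score peaked in T2134 at 3.06, with 8 of 9 genes above their own mean, while Aqp5 stood there at 0.53 (r = 0.031, rho = 0.168, permutation adjusted p = 0.955, n = 12). With 12 simple luminal epithelium genes, Aqp5 gave r = 0.491 (adjusted p = 0.248), and this rests on T176, where both were lowest. Without T176 r was -0.046, and without T176 and T2134, the tumours farthest from the median score, 0.077. Aqp8 gave r = 0.411 with the salivary and lacrimal score and 0.129 with the luminal score (adjusted p = 0.382 and 0.812). Without the 2 tumours farthest from the median score, these were 0.623 (T172 and T2134 left out) and 0.32 (T176 and T2134 left out).

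Aqp4 and Aqp9, whose spread was close to that of repeated arrays, had no relation that passed. Aqp4 gave r = 0.232 with 11 skeletal muscle genes and -0.304 with 7 nerve and glia genes (permutation adjusted p = 0.698 and 0.530, n = 12). Without the 2 tumours farthest from the median score, r was 0.672 with muscle (T55 and T920 left out). It was -0.179 with nerve and glia (T221 and T284 left out). T55, which had the highest muscle score (1.96, 11 of 11 genes above their own mean), had Aqp4 at -2.62, near its median. Aqp9 gave r = -0.451 with 10 neutrophil and monocyte genes and -0.417 with stratified epithelium (adjusted p = 0.382 each). Each of the 10 neutrophil and monocyte genes correlated negatively with Aqp9 (-0.739 to -0.017). Aqp7 with endothelium gave 0.179 (adjusted p = 0.733). A missed threshold does not show that no relation exists.

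The genes whose pattern over the 12 tumours was most like that of Aqp3 and Aqp5 were sought among 1320 others with values on all arrays and an SD of at least 1. For Aqp3 they were Klk12, a kallikrein-related protease (r = 0.970), Krt6b, a keratin of activated stratified epithelium (0.968), Fgfbp1, a secreted carrier of fibroblast growth factors (0.962), Fam3b (0.961) and Stfa2, a cysteine protease inhibitor (0.961). All 5 had their highest ratio in T221, where Klk12 stood at 4.73 and Krt6b at 4.77. For Aqp5 they were Cavin2, a coat protein of caveolae (0.893), Dusp6, a phosphatase of ERK (0.881), Hs3st1, a heparan sulfate sulfotransferase (0.877), B3galt5, a galactosyltransferase (0.856), and Zdhhc2, a palmitoyltransferase (0.848). All 5 were lowest in T176, and Dusp6 (3.25), Hs3st1 (3.87) and B3galt5 (2.25) were highest in T646, as Aqp5 was. Without T176 these 5 gave r of 0.811 to 0.853, and without T172 and T284 the 5 genes like Aqp3 gave 0.947 to 0.960. These values are picked as the highest of many and carry no test.

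Genes that work beside aquaporins in fluid, glycerol and solute handling differed between tumours to unequal extents. The F-test has no direction, so counts are of genes that differed at an adjusted p under 0.05, beside 18.6% of all genes. Of 14 measured genes of ion transport for fluid secretion and absorption 10 differed. Kcnn4, a calcium-activated potassium channel, ranged from -0.18 in T2023 to 4.0 in T284 (limma adjusted p = 0.00108), and Ano1, a calcium-activated chloride channel, from 0.29 in T176 to 4.49 in T284 (0.00118). Atp1b1, a sodium pump subunit, ranged from -4.27 in T176 to 1.69 in T172 (0.000207). Fxyd3, a pump regulator, stood at -0.90 in T176, and leaving that tumour out ended its call (adjusted p = 0.227). Of 5 urea and ammonium channel genes 4 differed. Rhcg, an ammonium channel, and Slc14a2, a urea transporter, were highest in T2023 (3.16 and 1.82; limma adjusted p = 0.00119 and 0.00447), as was Rhbg (1.48; 0.00322), and Slc14a1 was highest in T135 (1.35; 0.00696).

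Of 11 measured genes of glycerol handling 3 differed. Dgat2, which makes triglyceride, was highest in T221 (0.52) and lowest in T176 (-3.01; limma adjusted p = 0.00124). Gpd1 was highest in T920 (0.94) and lowest in T221 (-1.93; 0.0201), and Angptl4, an inhibitor of lipoprotein lipase, was highest in T221 (0.06) and lowest in T284 (-3.20; 0.00303). Of 13 osmotic stress and cell volume genes 4 differed, among them Slc5a3, the myo-inositol transporter, with 3.05 in T172 and -0.12 in T221 (0.00280). The others were the taurine transporter gene Slc6a6 (0.00718), the kinase gene Stk39 (0.0133) and Lrrc8d (0.0278), and Lrrc8d lost its call without T176 (0.320). Of 13 genes of aquaporin anchoring and trafficking 1 differed, Ezr, which encodes ezrin, with -2.41 in T176 and 1.81 in T55 (0.00432), and without T176 it was not called (0.161). The other genes named from these 5 lists kept their calls in all 22 alternatives. The share that these genes have in the aquaporin ratios was not tested.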

How the data were processed

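The authors deposited 1 log2 ratio per probe and array, tumour (Cy5) over common reference (Cy3), per the labels; RNA was purified with a Qiagen kit, per the labels' protocols. The base of the logarithm was inferred from the values (-9.19 to 7.42). Array medians of 0 to 0.018 show centring per array. How spots were scanned, corrected, normalized or filtered was not given in the sources used here. All arrays share 1 dye orientation, and pairs of arrays correlated at 0.465 to 0.898. Each array held 22501 to 22566 of 22575 probes, and the number of arrays limits the precision.

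Of the probes 18658 had 1 gene symbol, 30 several and 3887 none. Symbols were updated through RefSeq (GRCm38.p6), by Entrez identifier for 18445, by accession for 24, and kept for 189. Probes of a gene were averaged. Genes needed values on at least 12 arrays, in every tumour, and on each array of T172 or T284, which left 16618 of 16879. No normalization was added.

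Tumours were compared with limma 3.58.1 (R 4.3.3), a factor of 12 tumours on 14 arrays, moderated F-test, Benjamini-Hochberg over all genes; its prior had an SD of 0.313 at 7.3 degrees of freedom. The spread within a tumour, which may be technical, comes only from T172 and T284. The 14 relations of an aquaporin with a marker list used 100000 resamples (Python 3.11.15, numpy 2.4.6). The steps were tested on simulated data. Members, lists and relations were chosen with earlier results of these data known. For Aqp3, earlier results already showed tumours rich in squamous genes as high, so its relation is no independent evidence. Genes named are the aquaporins, the 5 most alike for each member with an SD of at least 1, up to 4 called genes of each pathway list, and the 3 genes of largest SD in a marker list; Dsc3, Krtdap and Hba-a1, and genes that end a range, were chosen after their values were seen. Alternatives were quantile normalization, 1 probe per gene, complete genes, other priors, single arrays, median scores, a term for the second arrays and leaving out tumours.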

Additional observations from a re-analysis of the deposited data

How the results depend on the processing

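The count of genes that differed between tumours, 3090, stayed within 1.5 times (2499 to 4329) under 21 alternatives. A replicate block, that is, a term for the second arrays of T172 and T284, gave 7161 of 16535 genes (43.3%) with 1 residual degree of freedom. The second-minus-first differences of these tumours correlated at 0.325 over 16784 genes, but the labels mark the second arrays only as biorep and do not say that they share a batch, so no pairing is established. The mean and SD of the members moved by at most 0.10 with quantile normalization, 1 probe per gene or single arrays of T172 and T284; these were not recomputed without tumours. The block, leaving out each tumour but T176 in turn, and the genes most like Aqp3 and Aqp5 without tumours were chosen after seeing the data. The relation of Aqp3 with stratified epithelium, already seen in earlier results and so no independent evidence, kept its call in all 18 alternatives. That of Aqp7 with adipocyte genes missed the threshold with quantile normalization (r = 0.542), without replicate 2 of T172 and T284 (0.648), with median scores (0.674), and without T172 and T284 (0.659). With 1 tumour left out, r was 0.697 to 0.887. That of Aqp1 with endothelium missed it without T172 and T284 (0.765), and r was 0.699 to 0.854 with 1 tumour left out. Among relations that were not called, the sign changed for Aqp4 with nerve and glia under quantile normalization (0.201), with median scores (0.679) and without T172 and T284 (0.135). It changed for Aqp3 with milk without replicate 2 of T172 and T284 (0.059) and, with 1 tumour left out, r ran from -0.19 to 0.189. It changed for Aqp5 with salivary and lacrimal secretion with median scores (-0.12), without T176 (-0.104) and without T172 and T284 (-0.027), with -0.0577 to 0.251 when 1 of the other 11 tumours was left out. It changed for Aqp5 with luminal genes without T176 (-0.046). The cause of these changes was not tested. No signal intensity was available to judge which ratios come from dim spots.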
